A study of Homo sapiens with 21 samples.

Results

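Loss of the transcription factor ATF7 was examined in THP1 cells, a human monocytic line derived from an acute myeloid leukemia. The comparison held 4 ATF7 knockout libraries, 2 from each of 2 clones, and 5 control libraries, 9 of the 19 libraries whose values were available (21 were labelled). The ATF7 knockout cells received a Lenti-CRISPRv2 construct and were taken through limiting dilution, so each clone descends from a single cell and stands for 1 editing event. The controls were 2 knockout control libraries, 2 shRNA control libraries and 1 wild type library, all grown in the same medium with no stimulus named in the labels. The labels call the knockout control by that name alone and do not say whether it was a clone, and the shRNA control carries a vector that neither the clones nor wild type carry. Whether replicates were grown as separate cultures is also not given in the labels, so each p-value measures no more than the spread among these libraries and part of it may be technical.

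ATF7 is a basic leucine zipper factor of the ATF2 subfamily that binds cyclic AMP response elements, alone or paired with other leucine zipper proteins such as JDP2. In mouse macrophages it is known to sit at innate immune genes and to keep them repressed through methylation of histone H3 on lysine 9, a repression that is released by stress kinase signalling. THP1 cells are widely used as a model of human monocytes. The question was which messages differ when ATF7 has been edited, and whether both clones show it.

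The 9 libraries held 28650241 to 49816700 reads in genes, and 14575 to 18875 genes had at least 1 read. ATF7 knockout clone 2 replicate 1 stood apart, with the fewest reads, the most genes detected, and 16.1 percent of its genes over 2-fold away from the libraries' median, against 2.87 to 11.2 percent in the other 8. It correlated with its own replicate at 0.919 on log2 values, whereas the other replicate pairs lay between 0.971 and 0.974. Of 15 myeloid and THP1 markers, 14 averaged over 10 normalized counts, and the sum over the list ranged from 139000 to 243000 in ATF7 knockout libraries and from 135000 to 237000 in controls. HLA-DRA, an MHC class II chain, was at or near 0 throughout (at most 2.16 in ATF7 knockout and 5.62 in controls), and the granule enzyme MPO was low, at 19.2 to 53.2 in ATF7 knockout and 18.5 to 36 in controls. Lymphoid markers summed to 7820 to 17200 in ATF7 knockout libraries and to 13300 to 18800 in controls, and NKG7 made up most of that sum. Erythroid and megakaryocyte markers summed to 3190 to 6930 in ATF7 knockout libraries and to 2770 to 4370 in controls. Epithelial and stromal markers summed to 1280 to 2210 in ATF7 knockout libraries and to 1210 to 1750 in controls. The part of other cell types in the results was not tested.

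The ATF7 message itself was not reduced. ATF7 stood at 645 and 511 normalized counts in clone 1 and 617 and 363 in clone 2, against 299.9 and 537 in the knockout control, 210.0 and 499 in the shRNA control and 387 in wild type. The groups overlapped, and the log2 difference was 0.51 ± 0.28 (SE; limma adjusted p = 0.424). An edit that shifts the reading frame need not lower the read count of a gene, and neither the site of the edit nor the protein was measured here, so these libraries do not check the genotype. JDP2, which can pair with ATF7, stood at 4817 and 5042 in clone 1 and 2636 and 5447 in clone 2, against 2966 to 5085 in the controls, with a log2 difference of 0.14 ± 0.24 (limma adjusted p = 0.813). IRF2BP2, the cofactor targeted elsewhere in the study, differed by 0.23 ± 0.20 (limma adjusted p = 0.61), with 17579.8 to 27597 in ATF7 knockout libraries against 14859 to 21364 in controls.

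With both clones as 1 group, few messages passed the test, and nearly all of those were lost or reduced rather than gained. Of 13086 genes with a mean of at least 10 normalized counts, 14 were called at a limma adjusted p under 0.05, which is 0.107 percent, 13 lower (0.0993 percent) and 1 higher (0.00764 percent) in ATF7 knockout. The 13 included the chemokine receptor CCRL2 and the chemokine CXCL16, along with mitochondrial, cytoskeletal and ribosomal genes. At an unadjusted p under 0.05 there were 1799 genes, and the median log2 difference over all genes tested was 0.02. In each of the 14, the 4 ATF7 knockout libraries lay outside the range of the 5 controls, and so they did for 331 genes below the controls (2.53 percent) and 287 genes above them (2.19 percent) among all those tested. Taken against the controls on its own, each of the 14 passed the test in clone 2 and 10 passed it in clone 1. The difference between the clones was called for 1 of the 14, CXCL16, and that call was kept in 3 of 18 alternatives.

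**Figure D1:**
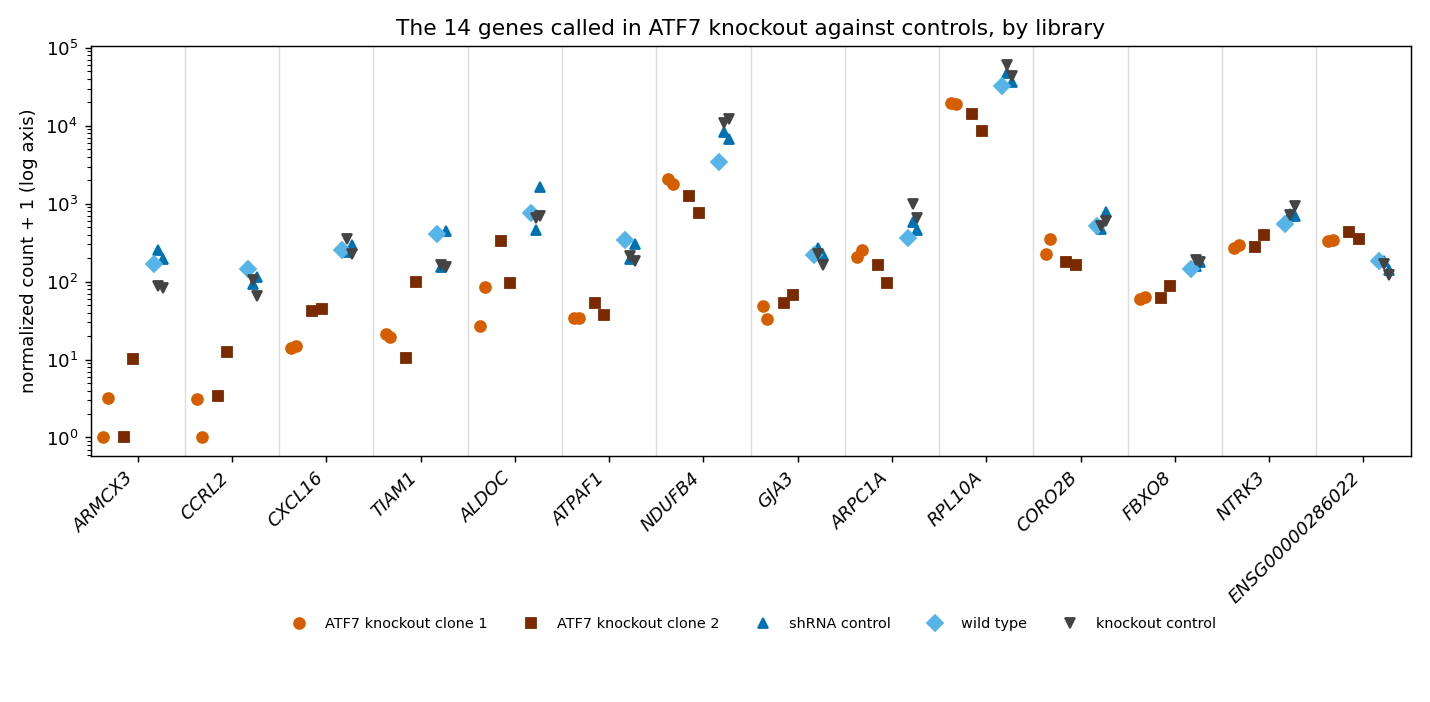
Normalized count + 1 on a log axis for the 14 genes called in ATF7 knockout against controls, 1 point per library, with clone 1 and clone 2 at the left of each gene and the 3 kinds of control at the right. In 13 genes the 4 ATF7 knockout points lie below all 5 control points, and in ENSG00000286022 they lie above them.

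CCRL2 is an atypical chemokine receptor that binds chemerin and presents it to other cells. It stood at 2.16 and 0 normalized counts in clone 1 and 11.6 and 2.4 in clone 2, against 104 and 64.5 in the knockout control, 91.6 and 112 in the shRNA control and 144 in wild type. The message was close to absent in 3 of the 4 ATF7 knockout libraries and present in every control. It fell by 4.89 on the log2 scale (SE 0.63, limma adjusted p = 0.00434). CXCL16 is a membrane-bound chemokine and scavenger receptor for oxidised lipoprotein, shed to attract CXCR6-bearing cells. It stood at 12.9 and 14.1 in clone 1 and 44.0 and 40.8 in clone 2, against 356 and 222 in the knockout control, 239 and 297 in the shRNA control and 257 in wild type. Replicates of a clone lay close together here, and clone 1 lay below clone 2. CXCL16 fell by 3.44 ± 0.37 on the log2 scale (limma adjusted p = 0.00123).

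Among mitochondrial genes, ATPAF1 encodes the chaperone that brings the beta subunit into the F1 part of ATP synthase. It stood at 33.4 and 33.6 in clone 1 and 35.9 and 52.8 in clone 2, against 209.7 and 185 in the knockout control, 196 and 299 in the shRNA control and 343 in wild type. Its 4 ATF7 knockout values lay close together, and it fell by 2.61 on the log2 scale (SE 0.28, limma adjusted p = 0.00123). NDUFB4, an accessory subunit of complex I, stood at 2097 and 1789 in clone 1 and 756 and 1246 in clone 2, against 10756 and 12281 in the knockout control, 8353 and 6811 in the shRNA control and 3417 in wild type. The knockout control libraries were the highest of the 9 and wild type was the lowest control, and NDUFB4 fell by 2.47 ± 0.36 on the log2 scale (limma adjusted p = 0.012). ARMCX3, an outer mitochondrial membrane protein of the X chromosome that takes part in mitochondrial transport, stood at 0 and 2.17 in clone 1 and 9.26 and 0 in clone 2. It stood at 86.9 and 81.6 in the knockout control, 251 and 192 in the shRNA control and 165 in wild type. ARMCX3 fell by 5.90 on the log2 scale (SE 0.69, limma adjusted p = 0.00192), more than any other of the 14 genes.

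TIAM1, ARPC1A and CORO2B act on actin and cell shape. TIAM1, an exchange factor that activates Rac, stood at 20.5 and 18.4 in clone 1 and 98.4 and 9.6 in clone 2, against 164 and 155 in the knockout control, 155 and 449.8 in the shRNA control and 410.2 in wild type. It fell by 3.20 ± 0.55 on the log2 scale (limma adjusted p = 0.0476), and clone 2 replicate 1, the library that stood apart, was the ATF7 knockout library nearest to the controls. ARPC1A, a subunit of the Arp2/3 complex that branches actin filaments, stood at 207 and 251 in clone 1 and 93.7 and 163 in clone 2, against 995 and 661 in the knockout control, 576 and 463 in the shRNA control and 367 in wild type (log2 difference -1.78 ± 0.31, limma adjusted p = 0.0476). CORO2B, an actin-binding coronin, stood at 225 and 349 in clone 1 and 161 and 180.1 in clone 2, against 476 to 778 in the controls (log2 difference -1.37 ± 0.24, limma adjusted p = 0.0476).

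The remaining called genes have unrelated roles. ALDOC, a glycolytic aldolase, stood at 25.9 and 84.6 in clone 1 and 96.0 and 328 in clone 2, against 456 to 1617 in the controls, and fell by 3.04 ± 0.54 on the log2 scale (limma adjusted p = 0.0476). GJA3, a gap junction connexin best known from the eye lens, stood at 47.4 and 32.5 in clone 1 and 67.1 and 52.8 in clone 2, against 161 to 269 in the controls, and fell by 2.13 ± 0.27 (limma adjusted p = 0.00374). RPL10A, a protein of the large ribosomal subunit, stood at 19387 and 18833 in clone 1 and 8683 and 14232 in clone 2, against 32428 to 60984 in the controls, and fell by 1.57 ± 0.26 (limma adjusted p = 0.0469). Ribosomal protein genes have many near-identical pseudogenes, and how reads shared with them were counted is not given in the sources used here. NTRK3, a neurotrophin receptor kinase, stood at 273 to 395 in ATF7 knockout libraries and 556 to 937 in controls (log2 difference -1.23 ± 0.20, limma adjusted p = 0.036). FBXO8, an F-box protein, stood at 59.3 to 85.6 and 143 to 191 in those groups (log2 difference -1.35 ± 0.24, limma adjusted p = 0.0476). The single higher gene, ENSG00000286022, has no symbol in the files, and stood at 328 and 342 in clone 1 and 347 and 432 in clone 2, against 119 to 184 in controls (log2 difference 1.19 ± 0.21, limma adjusted p = 0.0476).

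Several of these calls lay near the threshold and were lost in most fits that left out 1 library. ARMCX3, CCRL2, CXCL16, ATPAF1 and GJA3 were called in each of the 9 fits that left out 1 library, NDUFB4 in 7, RPL10A in 4, ARPC1A and NTRK3 in 2, TIAM1, ALDOC, FBXO8 and CORO2B in 1, and ENSG00000286022 in 0. The number of genes called was 5 without either knockout control library, 6 without either shRNA control library, 7 without clone 2 replicate 2 and 9 without clone 1 replicate 1. With the knockout control alone 51 genes were called, all lower, and 4 of the 14 were among them, while ARMCX3, CCRL2 and GJA3 lost their call. With shRNA control and wild type alone 4 genes were called, also all lower and all among the 14, while CCRL2 and NDUFB4 lost their call. CXCL16 and ATPAF1 were called against either set of controls. When each clone and each kind of control was averaged to 1 value (2 against 3), limma called 0 genes, with 1713 at an unadjusted p under 0.05, while on the same 9 libraries edgeR called 7 genes and DESeq2 190 from the recovered reads. In the authors' deposited table, which has the same libraries in both groups, 40 genes had an adjusted p under 0.05, 4 higher (0.0315 percent) and 36 lower (0.284 percent), and these included 9 of the 14. ARMCX3, CXCL16, TIAM1, ARPC1A and ENSG00000286022 were not among them. That table gives ARMCX3 a log2 fold change of -1.64 (its adjusted p 0.0793) and CXCL16 one of -1.60 (its adjusted p 0.0874), both smaller falls than those given above. The settings behind that fold change are not known here, so the sizes may not be comparable with the limma differences.

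The clones of JDP2 knockout, made with the same vector and dilution, stood at low levels for part of these genes as well. These genes were chosen against the same controls, which favours JDP2 knockout values below them, so this is not independent support. The share of all genes tested that lay below every control in JDP2 knockout was not computed. ATPAF1 was at 13.5 to 57.8 normalized counts in the 4 JDP2 knockout libraries, NDUFB4 at 716 to 996, FBXO8 at 44.8 to 75.9 and CCRL2 at 2.11 to 56.3, all below the control ranges given above. ALDOC at 37 to 332, RPL10A at 10700 to 18800 and CORO2B at 153 to 268 also lay below every control there. ARPC1A at 119 to 395, GJA3 at 101 to 259 and NTRK3 at 249 to 644 overlapped the controls. CXCL16 was at 219 and 390 in JDP2 knockout clone 1 and at 7.68 and 12.3 in clone 2, and ARMCX3 at 0 and 18.6 in clone 1 and 161 and 138 in clone 2. TIAM1 stood at 5.27 and 18.6 in JDP2 knockout clone 1 and at 137 and 141 in clone 2, below every control in both. ENSG00000286022 was at 343 to 1210 there. In the 6 IRF2BP2 shRNA libraries, which the labels do not number as clones, ATPAF1 was at 118 to 391, CCRL2 at 159 to 376, CXCL16 at 275 to 870, ARMCX3 at 97.7 to 218 and ENSG00000286022 at 41.0 to 149. Other genes reached ATF7 knockout levels in some of those 6 libraries. NDUFB4 was at 1730 to 13900, with 1730 and 1930 in the lowest of them, RPL10A at 10000 to 36100 and ARPC1A at 244 to 2050. ALDOC was at 259 to 888, CORO2B at 236 to 953, NTRK3 at 287 to 720 and TIAM1 at 70.1 to 435. GJA3 at 69 to 219 and FBXO8 at 125 to 339 stayed above every ATF7 knockout value. Their lowest values lay below every control, however, as did the lowest values of ATPAF1 and ENSG00000286022. The part that cloning plays in these differences was not tested, and in the ATF7 arm the edit and the clone cannot be told apart wherever both clones move together.

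Because ATF7 binds cyclic AMP response elements, the promoters of the called genes were searched. Of the 14 genes, 11 had a promoter in the RefSeq table (build GRCh38.p14, from 250 bases before to 50 after the start). The full element, TGACGTCA, was in 0 of the 11, against 1.98 percent of 27305 promoters and 3.23 percent of the 10531 promoters of genes tested. The AP-1 motif TGANTCA was also in 0 of the 11, against 4.61 percent of tested genes. The shorter element TGACG, on either strand, was in 1 of the 11, against 33.6 percent of tested genes. That gene is FBXO8. The 4 sequences below are those of CCRL2, ATPAF1 and GJA3, called in each fit that left out 1 library, and of FBXO8. They run 5′ to 3′ along the gene's own strand, and capitals mark TGACG or its complement CGTCA.
CCRL2: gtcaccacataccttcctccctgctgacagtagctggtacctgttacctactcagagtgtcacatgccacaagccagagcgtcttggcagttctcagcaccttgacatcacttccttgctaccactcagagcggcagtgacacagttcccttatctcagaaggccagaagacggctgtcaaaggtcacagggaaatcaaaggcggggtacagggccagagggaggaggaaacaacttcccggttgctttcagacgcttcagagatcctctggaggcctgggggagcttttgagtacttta
ATPAF1: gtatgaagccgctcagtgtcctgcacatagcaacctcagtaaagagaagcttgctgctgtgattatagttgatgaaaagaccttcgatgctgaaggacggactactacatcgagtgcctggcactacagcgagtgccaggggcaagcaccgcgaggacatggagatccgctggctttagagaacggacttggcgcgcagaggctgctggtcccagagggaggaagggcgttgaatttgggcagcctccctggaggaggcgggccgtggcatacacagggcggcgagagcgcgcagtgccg
GJA3: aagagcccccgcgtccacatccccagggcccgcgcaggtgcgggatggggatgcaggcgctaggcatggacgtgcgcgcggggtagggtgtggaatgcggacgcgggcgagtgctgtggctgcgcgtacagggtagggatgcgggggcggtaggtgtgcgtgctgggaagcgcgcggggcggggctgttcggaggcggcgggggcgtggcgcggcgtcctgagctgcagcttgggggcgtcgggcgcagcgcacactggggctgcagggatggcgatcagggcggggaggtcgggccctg
FBXO8: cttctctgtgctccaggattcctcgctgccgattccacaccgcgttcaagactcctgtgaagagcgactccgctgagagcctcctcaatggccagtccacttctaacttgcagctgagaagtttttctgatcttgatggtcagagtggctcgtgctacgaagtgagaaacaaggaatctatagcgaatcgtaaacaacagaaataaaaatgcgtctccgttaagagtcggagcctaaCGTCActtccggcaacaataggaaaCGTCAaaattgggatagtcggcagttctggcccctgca
CCRL2 lies at chr3:46407009-46407308 on the plus strand, ATPAF1 at chr1:46668508-46668807, GJA3 at chr13:20161003-20161302 and FBXO8 at chr4:174283618-174283917, each on the minus strand. The GJA3 window is set on a start 513 bases inside the RefSeq gene, whose longest span ends at 20161565, so that window lies within the gene, whereas the other 3 are set on the outer end of theirs. A match is a description of these letters only, and none of these windows was assayed for ATF7 binding.

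**Figure D2:**
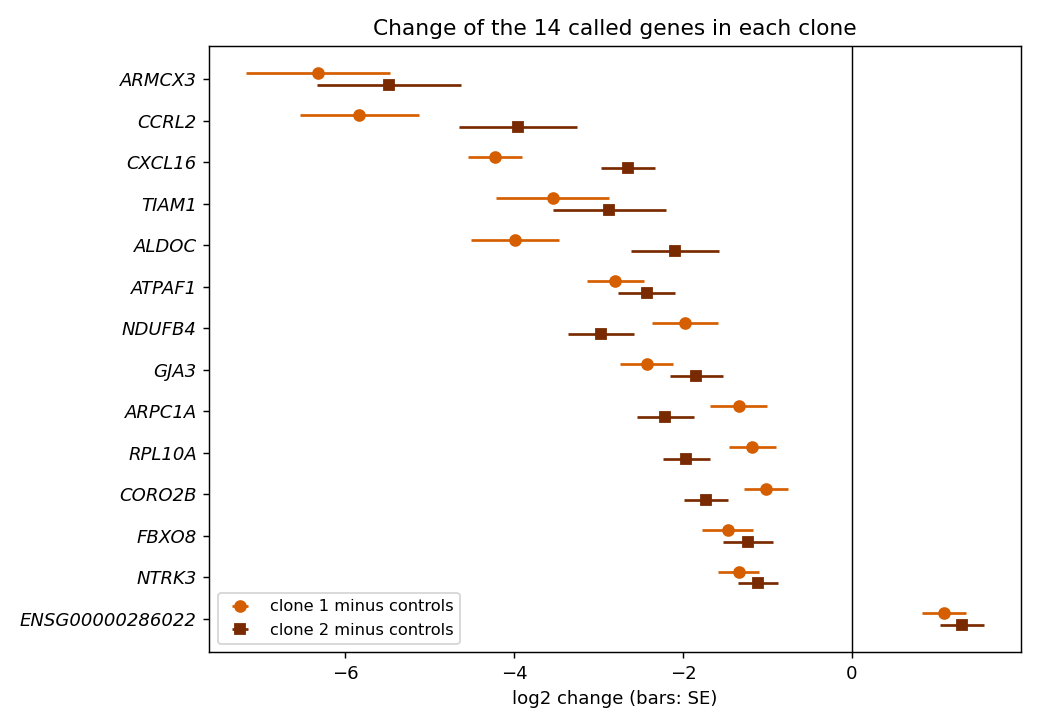
Log2 change of the 14 called genes in clone 1 (circles, upper) and clone 2 (squares, lower) against the 5 controls, with bars for the SE. CCRL2, CXCL16 and ALDOC lie farther from 0 in clone 1, and NDUFB4, ARPC1A, RPL10A and CORO2B lie farther from 0 in clone 2.

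The clones were then compared with the controls in turn. Both contrasts use the same 5 controls, so their values are given side by side without an overlap. CCRL2 changed by -5.83 ± 0.70 on the log2 scale in clone 1 and by -3.95 ± 0.70 in clone 2, and CXCL16 by -4.23 ± 0.32 and -2.65 ± 0.32. ATPAF1 changed by -2.80 ± 0.34 in clone 1 and -2.43 ± 0.34 in clone 2. NDUFB4 leaned the other way, with -1.98 ± 0.39 in clone 1 and -2.97 ± 0.39 in clone 2. Of these 4 genes only CXCL16 differed between the clones by the test of that difference (1.58 ± 0.38, limma adjusted p = 0.042), and for CCRL2 the difference of 1.88 ± 0.83 did not pass (limma adjusted p = 0.402). The CXCL16 call lay near the threshold and was kept in 3 of 18 alternatives, where its difference ranged from 0.85 to 1.65.

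With both clones as 1 group, few members of the gene lists were called, as were few genes in all (0.107 percent), so a list of this size with 0 calls is near that background. Of 38 lists of genes, 34 held 0 called members, and the other 4 held 1 each, all lower (CXCL16, NDUFB4, RPL10A and ALDOC). Of 35 interferon-stimulated genes tested, limma called 0 (7 at an unadjusted p under 0.05), edgeR called 0 and DESeq2 called 2 lower, IFITM1 and IFITM2, and the median log2 difference was -0.04 against 0.02 over all genes. Over all genes tested, DESeq2 called 144 lower and 46 higher. Of 17 genes for histone H3 lysine 9 methylation and heterochromatin, limma, edgeR and DESeq2 each called 0 (1 at an unadjusted p under 0.05 in limma), with a median of -0.12. Of 18 leucine zipper factors and partners the same tools each called 0 (4 at an unadjusted p under 0.05 in limma), with a median of 0.41 and a range from -0.44 to 0.86. The lowest median was that of MHC class II at -0.88 over 6 tested genes, and the highest was 0.48 for 4 erythroid and megakaryocyte markers. Among 64 high-level members of lists without a call, the log2 difference ranged from -3.40 for CD74 to 0.62 for JUNB. The lowest limma adjusted p was 0.0707, reached by RFX5, a factor that drives MHC class II promoters, which stood at 1216 and 1221 in clone 1 and 1024 and 1069.5 in clone 2, against 1798 to 3565 in controls.

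Among sensors of the inflammasome and NOD families, NLRP3 and NOD2 lay below all controls in both clones without passing the pooled test. The same position below all controls was held by 2.53 percent of all genes tested. Of the 26 tested Toll-like receptor and inflammasome genes limma called 0 with both clones as 1 group (5 at an unadjusted p under 0.05), edgeR called 0 and DESeq2 called 2 lower, NLRP3 and NOD2, and the median was -0.02. The members ranged from -1.33 to 1.29, and DESeq2 called 144 genes lower among all those tested. NLRP3 stood at 379 and 395 in clone 1 and 439 and 462 in clone 2, against 694 to 826 in controls, a log2 difference of -0.86 ± 0.16 (limma adjusted p = 0.0707). It passed in each clone set against the controls (-0.97 ± 0.20 with limma adjusted p = 0.0497 in clone 1, and -0.75 ± 0.20 with 0.0482 in clone 2), and the authors' deposited table gives it a log2 fold change of -0.84 with an adjusted p of 9.68e-06. NOD2, a sensor of bacterial cell wall fragments, stood at 67.9 and 58.6 in clone 1 and 72.9 and 33.6 in clone 2, against 134 to 153 in controls, a log2 difference of -1.33 ± 0.27 (limma adjusted p = 0.085). Both calls of NLRP3 in a single clone lay at the threshold, and they were kept in 4 of 20 alternatives for clone 1 and 5 of 20 for clone 2. NOD2 was called in clone 2 (-1.50 ± 0.34, limma adjusted p = 0.021), and that call was kept in 14 of 20 alternatives but not without clone 2 replicate 2. NLRP1 was called lower in clone 2 too, and its call was kept in 6 of 20 alternatives. In clone 2, 3 of the 26 genes were thus lower (11.5 percent, against 3.94 percent of all genes tested).

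Clone 1 on its own had a small set of called genes, some of them nearly absent. Against all controls 61 genes were called (0.466 percent), 8 higher (0.0611 percent) and 53 lower (0.405 percent). Both clone 1 libraries lay below every control in all 53 and above every control in all 8, as they did in 7.06 and 7.41 percent of all genes tested. For 42 of the 61 the difference between the clones was called as well. MT1G, a metal-binding metallothionein, stood at 94.9 and 91.1 normalized counts in clone 1, against 2644 to 4129 in controls, and fell by 5.19 ± 0.25 on the log2 scale (limma adjusted p = 2.92e-08). PRDX2, a peroxidase that removes hydrogen peroxide, stood at 38.8 and 41.2 in clone 1, against 1353 to 3952 in controls (log2 difference -5.84 ± 0.38, limma adjusted p = 5.63e-07). PSTPIP2, an adaptor that restrains inflammasome-linked inflammation in mice, stood at 2.16 and 2.17 in clone 1, against 109 to 208 in controls, and DNAJC15, a mitochondrial chaperone regulator, at 0 and 10.8, against 233 to 409. In clone 2 PSTPIP2 stood at 182 and 139 and DNAJC15 at 242 and 233, within or close to the control range.

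The 8 higher calls of clone 1 rest on its 2 libraries, and a fit without either has 1 library of that clone and less power. ITGAD, an integrin alpha chain of leukocytes, stood at 3497 and 4590.4 in clone 1, against 31.8 to 266 in controls (log2 difference 4.74 ± 0.76, limma adjusted p = 0.00684). ZG16B, a secreted lectin-like protein, stood at 176 and 217 in clone 1, against 1.87 to 17.4 in controls, and CADM1, a cell adhesion molecule, at 137 and 193, against 25.4 to 44.8. HSH2D, a haematopoietic adaptor protein, stood at 618 and 626 in clone 1, against 94.3 to 263, and LIMS2, a focal adhesion protein, at 414 and 957, against 131 to 214. ITGAD, ZG16B, CADM1 and HSH2D were not called without either clone 1 library and LIMS2 was not called without replicate 2, and CADM1 was kept in 5 of 20 alternatives. Of the 53 lower genes 20 lie on chromosome 19, where 1006 genes were tested, which is 1.99 percent of that chromosome's genes against 0.405 percent of all genes. The number called in clone 1 was 27 without its replicate 1, 38 without its replicate 2 and 40 without shRNA control replicate 3.

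Clone 2 departed from the controls in many more genes. Against all controls 551 genes were called (4.21 percent), 35 higher (0.267 percent) and 516 lower (3.94 percent). Both clone 2 libraries lay below every control in 515 of the 516, against 11.9 percent of all genes tested. For 209 of the 551 the difference between the clones was called as well. The count depended on the library that stood apart, since 315 genes were called without clone 2 replicate 1 (68 higher and 247 lower), of which 203 were among the 551. With shRNA control and wild type alone as reference 361 genes were called.

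CD74, CD4, CD68 and RENBP were among the genes lower in clone 2. CD74, the invariant chain that guides MHC class II, stood at 62.5 and 7.2 normalized counts in clone 2, against 1394 to 2584 in controls and 1141 and 1714 in clone 1 (log2 difference from controls -6.37 ± 0.52, limma adjusted p = 1.22e-05). RFX5 was called in clone 2 as well, so 2 of the 6 tested MHC class II genes were lower there (33.3 percent, against 3.94 percent of all genes tested), with 1 called without clone 2 replicate 1 and 3 without replicate 2. Of 16 MHC class I and peptide loading genes limma called 0 in clone 2 (4 at an unadjusted p under 0.05), edgeR called 0 and DESeq2 called 2 higher and 2 lower. Among all genes tested, DESeq2 called 315 higher and 852 lower in clone 2. CD4 stood at 617 and 1200.4 in clone 2, against 4919 to 6153 in controls (-2.62 ± 0.26, limma adjusted p = 6.36e-05). CD68, a lysosomal glycoprotein of macrophages, stood at 484 and 766 in clone 2, against 1813 to 4856 (-2.40 ± 0.36, limma adjusted p = 0.00141). With CD33 these made 3 of 14 tested myeloid markers lower in clone 2 (21.4 percent), while the median of that list was -0.07 and its members ranged from -2.62 to 1.03. Of 30 monocyte and macrophage differentiation genes 1 was lower, CD68, and 1 was higher, C3AR1, a receptor of complement fragment C3a (3.33 percent each way), and the C3AR1 call was kept in 3 of 20 alternatives. In bulk RNA fewer cells with a marker and less of its message per cell cannot be told apart. RENBP, an enzyme that converts N-acetylglucosamine, had the largest fall among genes called in clone 2, at 46.3 and 25.2 in clone 2, against 3414 to 4029 in controls (-6.73 ± 0.24, limma adjusted p = 5.19e-10).

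Called granule and interferon-stimulated genes were lower in clone 2. CTSG, the neutrophil and monocyte granule protease cathepsin G, stood at 2653 and 4546 normalized counts in clone 2, against 18888 to 34043 in controls and 33964 and 34436 in clone 1 (log2 difference from controls -2.79 ± 0.28, limma adjusted p = 8.49e-05). CAMP, the precursor of the antimicrobial peptide LL-37, stood at 11.6 and 4.8 in clone 2, against 65.7 to 249.9 in controls. These were the 2 of 15 tested granule proteins called in clone 2, both lower (13.3 percent, against 3.94 percent of all genes tested), and the list's median was 0.36. Of 35 interferon-stimulated genes tested, 5 were lower in clone 2 (14.3 percent) and 0 higher, with a median of -0.39 against 0.06 over all genes. OAS3, which makes the second messenger that activates RNase L, stood at 377 and 214 in clone 2, against 801 to 1626 in controls (-2.04 ± 0.30, limma adjusted p = 0.0012). IFITM1, which blocks virus entry, stood at 17.4 and 13.2, against 59.4 to 142 (-2.59 ± 0.43, limma adjusted p = 0.00303), and the other 3 were IFITM2, IFI35 and BST2. Without clone 2 replicate 1 there were 3 interferon-stimulated genes called, and without replicate 2 there were 4.

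Of 15 tested cytokines and chemokines 3 were lower in clone 2 (20 percent, against 3.94 percent of all genes tested). In the same list 1 was higher (6.67 percent, against 0.267 percent of all genes tested). CCL5, which attracts T cells and monocytes, stood at 547 and 929 in clone 2, against 2984 to 5230.2 in controls (log2 difference -2.51 ± 0.27, limma adjusted p = 0.000123), and at 2377 and 1959 in clone 1, where it did not pass (-0.92 ± 0.27, limma adjusted p = 0.295). CXCL8, the neutrophil attractant interleukin-8, stood at 516 and 79.2 in clone 2, against 9.22 to 65.7 in controls (2.97 ± 0.79, limma adjusted p = 0.0484), and its replicates differed widely. The CXCL8 call was kept in 9 of 20 alternatives. It was lost with shRNA control and wild type alone, and without clone 2 replicate 1. JUND, a leucine zipper factor of AP-1, was the 1 of 18 leucine zipper genes called in clone 2, at 5681 and 9193, against 1466 to 4221 in controls (1.38 ± 0.33, limma adjusted p = 0.0283), and it was not called without clone 2 replicate 2.

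In the proteasome, the ribosome and complex I, some members were lower in clone 2 while the median of the list was not below 0. Of 32 tested proteasome subunits 7 were lower in clone 2 (21.9 percent, against 3.94 percent of all genes tested) and 0 higher, while the median of the list was 0.10. PSMB3, a beta subunit of the core, stood at 933 and 1778 normalized counts in clone 2, against 4831 to 9738 in controls and 10184 and 8554 in clone 1 (log2 difference from controls -2.47 ± 0.29, limma adjusted p = 0.000261). Of 78 cytosolic ribosomal protein genes 8 were lower (10.3 percent) and 0 higher, with a median of 0.40. RPL3 stood at 14806 and 30162 in clone 2, against 93330.0 to 160922 in controls (-2.50 ± 0.32, limma adjusted p = 0.000379), and RPL12 at 7235 and 12342, against 35539 to 50060.0 (-2.15 ± 0.26, limma adjusted p = 0.000309). Of 37 complex I genes 4 were lower (10.8 percent), among them NDUFA6 at 312 and 497, against 2523 to 3561 (-2.94 ± 0.23, limma adjusted p = 1.22e-05). Without clone 2 replicate 1 there were 3 proteasome and 5 ribosomal protein genes lower, and 4 ribosomal protein genes were then called higher. Complex I then had 3 genes lower and 1 higher, and without replicate 2 it had 6 lower.

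**Figure D3:**
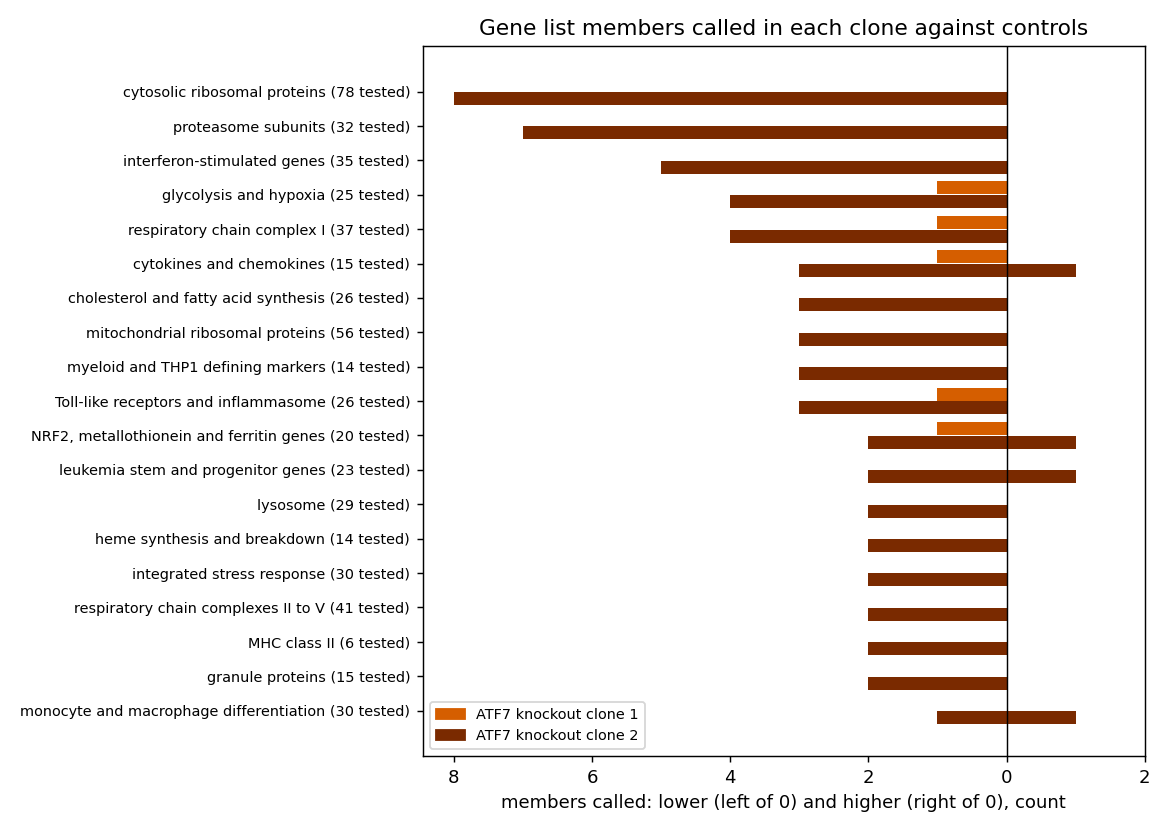
Members of each gene list called against the 5 controls in clone 1 (upper bar) and clone 2 (lower bar), as counts of lower members left of 0 and higher members right of 0, for lists with 2 or more calls in clone 2. The longest bars are 8 cytosolic ribosomal protein genes and 7 proteasome subunits, lower in clone 2.

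Metabolic genes added further single members in clone 2. Of 25 tested glycolysis and hypoxia genes 4 were lower, namely GPI, TPI1, ALDOC and GAPDH (16.0 percent, against 3.94 percent of all genes tested), and the calls of ALDOC and GAPDH were each kept in 10 of 20 alternatives. TPI1, triose phosphate isomerase, stood at 7301 and 9592, against 17269 to 25086 in controls (log2 difference -1.26 ± 0.23, limma adjusted p = 0.00553). Of 14 heme genes 2 were lower (14.3 percent), namely ALAS1, the rate-limiting enzyme of heme synthesis, at 1183 and 1450.1, against 2803 to 3901 (-1.23 ± 0.21, limma adjusted p = 0.00359), and ALAD, the enzyme of the following step. Among 20 NRF2, metallothionein and ferritin genes MT1X and MT1F were lower (10 percent) and MT2A was higher (5 percent) in clone 2, and MT2A was not called without clone 2 replicate 2. MT1X stood at 406 and 324 in clone 2, against 1389.7 to 2311 in controls (-2.28 ± 0.24, limma adjusted p = 0.000123). Without clone 2 replicate 1 the glycolysis and heme lists held 0 called members.

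Set against each other, the clones differed in 289 genes (2.21 percent), 52 higher (0.397 percent) and 237 lower (1.81 percent) in clone 2 relative to clone 1. RENBP was lower in clone 2, at 46.3 and 25.2 normalized counts, against 4964 and 6831 in clone 1 (log2 difference -7.37 ± 0.29, limma adjusted p = 1.83e-09). ITGAD stood at 87.9 and 9.6 in clone 2, against 3497 and 4590.4 in clone 1 (-7.03 ± 0.91, limma adjusted p = 0.000611). PADI4, an enzyme that converts arginine to citrulline in histones, stood at 62.5 and 0 in clone 2, against 439.8 and 336 in clone 1, with controls between 4.98 and 42.4 (-5.60 ± 1.36, limma adjusted p = 0.0451). The PADI4 call was kept in 6 of 18 alternatives and lost by edgeR and DESeq2, with an adjusted p of up to 0.313. LRP3, a lipoprotein receptor relative, was higher in clone 2, at 15304 and 27665, against 235 and 348 in clone 1 and 2278 to 11879 in controls (6.16 ± 0.59, limma adjusted p = 4.6e-05). CERS1, a ceramide synthase, stood at 716 and 951 in clone 2, against 6.47 and 15.2 in clone 1 (6.23 ± 0.61, limma adjusted p = 4.89e-05). DLL3, a Notch ligand, stood at 189 and 345, against 0 and 13, and CNFN, a cornified envelope protein, at 103 and 228, against 0 and 4.34. These last 4 genes lie on chromosome 19. The number of genes called was 92 without clone 1 replicate 1, 95 without clone 1 replicate 2 and 137 without clone 2 replicate 1.

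**Figure D4:**
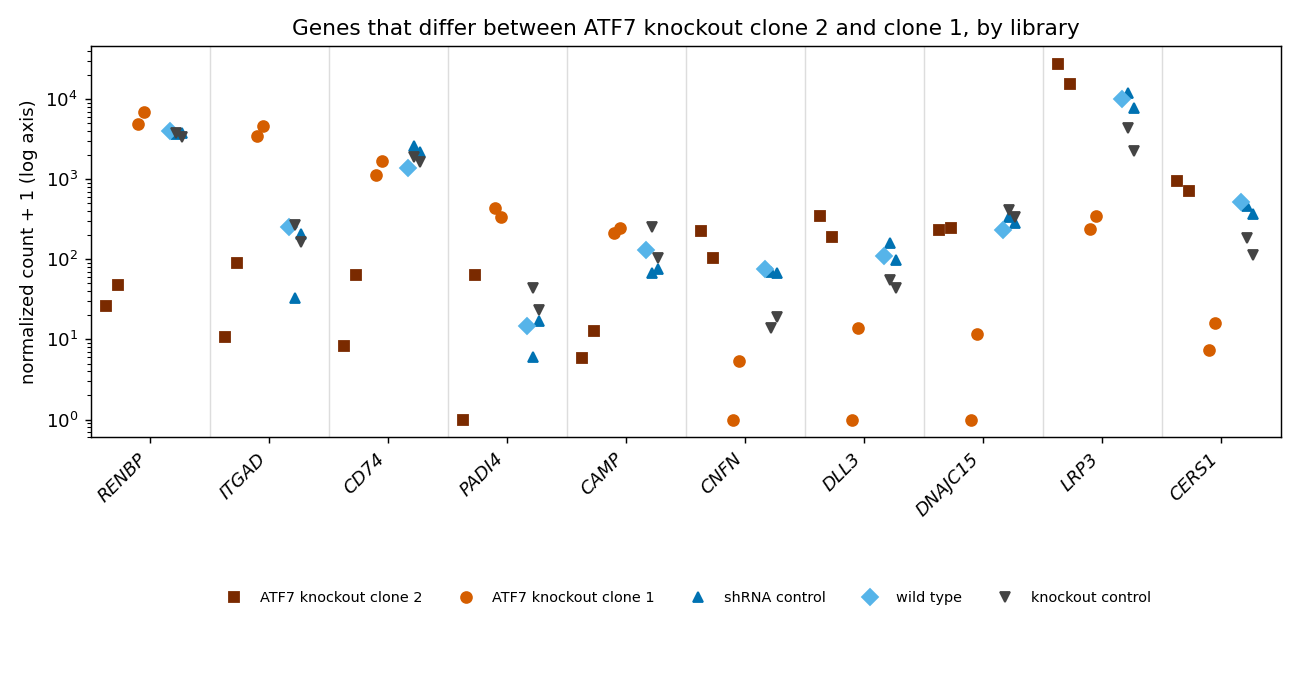
Normalized count + 1 on a log axis, by library, for the 10 genes with the largest called differences between ATF7 knockout clone 2 and clone 1, with clone 2 at the left of each gene, then clone 1, then the 3 kinds of control. RENBP, CD74 and CAMP lie below the controls in clone 2, whereas CERS1, LRP3, DLL3, CNFN and DNAJC15 lie below them in clone 1.

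A run of neighbouring genes on chromosome 13 was lower in clone 2 as a block. The boundary was chosen after the values were seen, so the figures describe it and no test is given. Over the 143 tested genes from 40 Mb to the end of that chromosome (gene positions from RefSeq, GRCh38.p14) the median log2 difference from the controls was -0.68 in clone 2 and -0.03 in clone 1, and 124 of the 143 lay below 0 in clone 2. By library the median was -0.60 and -0.75 in clone 2 and 0.06 and -0.06 in clone 1, against -0.12 to 0.08 in the controls. Over the 74 genes before 40 Mb the median was 0.15 in clone 2. Of the 143 genes 30 were called lower in clone 2, or 21.0 percent against 3.94 percent of all genes, among them the splicing regulator MBNL2, the lysosomal membrane protein LAMP1 and the sorting protein VPS36. The call was kept in 20 of 20 alternatives for MBNL2, 15 of 20 for VPS36 and 9 of 20 for LAMP1. MBNL2 stood at 18.5 and 1.2 in clone 2, against 155 to 392 in controls, and LAMP1 at 12654 and 16749, against 20660.2 to 48249.9. The median stayed between -0.60 and -0.75 under each alternative run. Chromosome 19 varied among all libraries, with medians of 0.26 and 0.56 in clone 2, -0.13 and 0.06 in clone 1, and -0.44 to 0.26 in controls, the lowest in knockout control replicate 2.

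**Figure D5:**
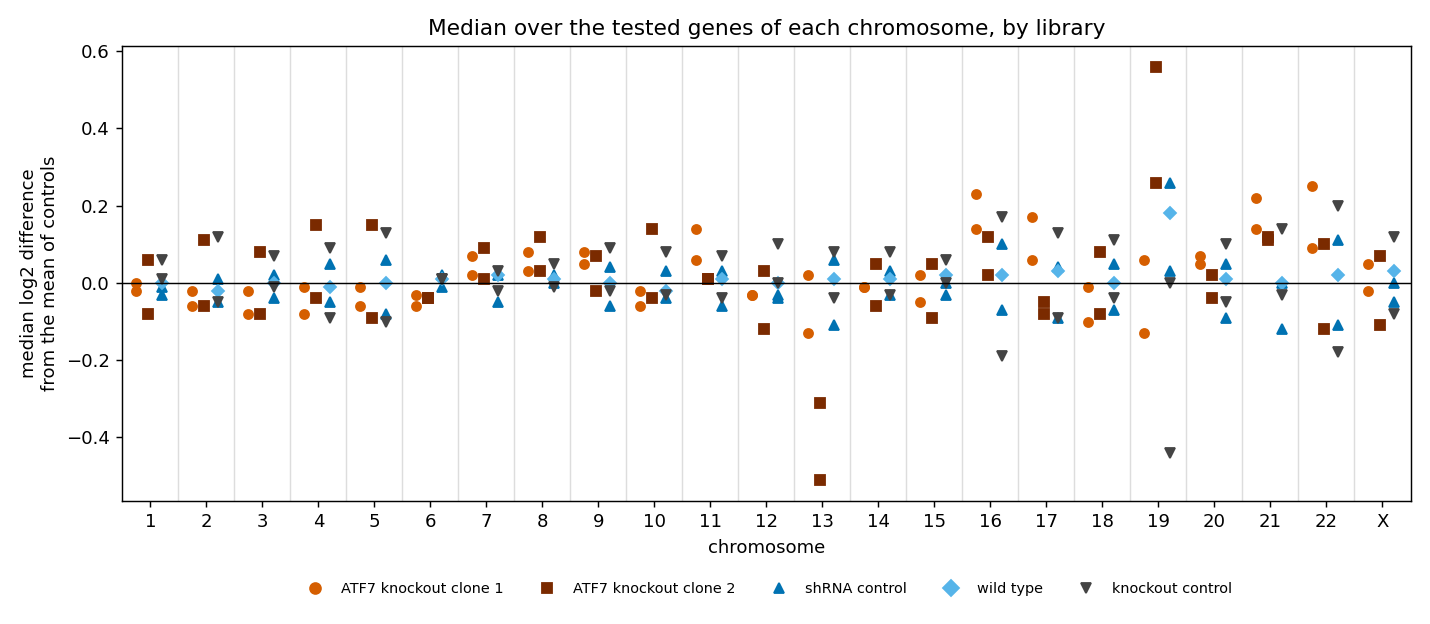
Median log2 difference from the mean of the 5 controls over the tested genes of each chromosome, 1 point per library, with the clones at the left of each chromosome. On chromosome 13 both clone 2 libraries lie lowest, at -0.31 and -0.51, and on chromosome 19 the libraries of all groups spread from -0.44 to 0.56.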

How the data were processed

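RNA sequencing libraries of THP1 cells were analysed from values that the authors deposited. Per the labels' protocols, RNA was purified on columns, treated with DNase and made into mRNA libraries for Illumina sequencing. Build hg38, featureCounts and DESeq2 appear in the submitters' processing notes, with no aligner, annotation, strand setting or version that could be used here. The authors' deposited table gives a signal per gene and library, a read count scaled by that library's size factor, for 20423 genes in 19 libraries. 100 percent of its values were whole multiples of 1 step per library within a tolerance of 0.01, so reads could be recovered. The authors' deposited comparison gives a log2 fold change, a Wald score and a p-value per gene. Its fold change followed all 5 controls (median absolute difference 0.0186, against 0.125 for the knockout control alone), and its Wald score has the opposite sign in 100 percent of genes, and directions here follow the fold change.

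The 4 ATF7 knockout libraries were compared with the 5 controls. The other 10 columns entered no fit, and the 2 libraries marked as low quality were not analysed here. Log2(normalized count + 1) was tested with limma 3.58.1 (empirical Bayes with a trend) for 13086 genes with a mean of at least 10, with Benjamini-Hochberg adjustment over all of them and a threshold of 0.05. Fold changes on this scale understate the change of low genes. Clones were tested in 1 fit with clone 1, clone 2 and controls as groups. edgeR 4.0.16 and DESeq2 1.42.0 were run on recovered reads as alternatives. The limma code was tested on simulated data. The lists and tests were chosen with earlier results of these data known.

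Genes were named by a rule: the targeted genes, the 10 largest rises and 10 largest falls among called genes (symbol given, mean of at least 50 in either group, same sign in both clones), for each list at most 4 called members, lowest p first, or its 2 highest-level members where none was called, and the 5 largest called rises and falls between the clones. FBXO8, CORO2B, NTRK3 and ENSG00000286022 fall outside it and were named after their values were seen, as were the genes given for a single clone (5 largest changes each way, called list members) and NOD2. Gene names are those of the files. Replicates of 1 group differed by more than counting noise (chi-square per gene of at least 89.8), so none was taken for 1 library deposited again, which does not show that they are separate cultures. Replicate numbers were not taken to pair libraries.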

Additional observations from a re-analysis of the deposited data

Results flagged for a closer look

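Among 97 groups of 4 or 5 libraries looked at for the named genes, 5 held a library with a gap to the others above the critical value for that size, about as many as the 1 in 20 that chance gives. They were JDP2 at 2636 in ATF7 knockout clone 2 replicate 1, ATPAF1 at 52.8 in clone 2 replicate 2, FBXO8 at 85.6 in clone 2 replicate 1, ITGAD at 31.8 in shRNA control replicate 1, and ALAS1 at 3901 in knockout control replicate 1.

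The clones differed in 289 genes by limma, and in 37 of the 80 genes named. The log2 difference, clone 2 minus clone 1, was 1.58 for CXCL16, 6.11 for DNAJC15, 5.12 for PRDX2, 5.66 for PSTPIP2, 4.45 for MT1G, 6.23 for CERS1, 6.16 for LRP3, 6.10 for DLL3 and 6.06 for CNFN. Lower in clone 2 than in clone 1 were ITGAD at -7.03, CADM1 at -2.45, HSH2D at -3.63, RENBP at -7.37, CD74 at -5.94, MBNL2 at -3.61, PADI4 at -5.60 and CAMP at -4.74. Among list members, the difference was -2.24 for OAS3, -1.60 for CCL5, -2.08 for CD68, -2.52 for CD4, -3.30 for CTSG, -2.88 for NDUFA6, -1.97 for RPL12, -2.21 for RPL3, -2.27 for MRPS28 and -1.66 for MRPL18. It was -1.60 for SHMT2, -1.51 for DDB2, -1.12 for ALAS1, -1.97 for MT1X, -1.49 for MT1F, -2.86 for PSMB3, -1.74 for PSMB4, -2 for LAMP1, -1.59 for FADS2 and -1.14 for TPI1.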

How the results depend on the processing

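Among the gene values recomputed under each alternative, which do not include every gene named, none changed direction, 1780 kept their side of the threshold, 468 lost their call and 10 gained one. For ATF7 knockout against controls 14 genes were called, and the count was 6 with no filter on low values, 8 at a mean of at least 50, 24 with equal library totals, 22 after quantile normalization, 7 by edgeR, 190 by DESeq2, 30 with array weights, 51 with the knockout control alone, 4 with shRNA control and wild type alone, 0 with clones and kinds of control averaged and 33 with clone or kind of control as a random block (consensus correlation -0.118). A negative correlation narrows the standard error of a comparison between blocks, so the fit with 33 calls is no stricter about clones than the main fit. For clone 1, 61 became 35 with no filter, 39 by edgeR, 135 by DESeq2 and 110 with array weights. For clone 2, 551 became 1167 by DESeq2, 237 with array weights and 361 with shRNA control and wild type alone. Between the clones 289 became 500 by DESeq2 and 192 with array weights. The cause of these differences was not tested. Leaving out 1 library gave 5 to 18 genes for both clones, 27 to 90 for clone 1, 315 to 585 for clone 2 and 92 to 336 between the clones. A lone library of a clone is then assumed to vary like the other groups.

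Equal library totals moved the median of all genes from 0.02 to -0.07 for both clones and from 0.01 to -0.10 for clone 1, and quantile normalization gave clone 2 121 higher and 627 lower genes in place of 35 and 516. Replicate numbers were compared through the deviations of same-numbered libraries from their group means. These correlated at -0.349 between the clones and at 0.398 and -0.56 between clone 1 or clone 2 and the knockout control. The signs differ, so the numbers do not pair the libraries in the same way across these groups. Whether libraries of different groups share a batch under other numbers was not tested. With the replicate number as a block 5 genes were called for both clones and 37 for clone 1, against 517 for clone 2 and 259 between the clones. Genes near the minimum mean of 10 rest on few reads, and small differences in them were not detectable at this depth.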
